A study of Mus musculus with 25 samples.

Results

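Interferon-stimulated genes are the genes that cells switch on after an interferon binds its receptor. The 9 described here are Ifit1 (ENSMUSG00000034459), Ifit2 (ENSMUSG00000045932), Ifit3 (ENSMUSG00000074896), Isg15 (ENSMUSG00000035692), Oasl2 (ENSMUSG00000029561), Irf7 (ENSMUSG00000025498), Rsad2 (ENSMUSG00000020641), Ifi44 (ENSMUSG00000028037) and Usp18 (ENSMUSG00000030107), taken as the rows of the deposited gene table whose Ensembl identifiers map to these symbols. They make up 9 of the 56941 genes in that table, and all 9 passed the filter on low counts, which left 17682 genes to test. RNA was sequenced from 25 mouse hearts to study lactate metabolism during hypertrophy, the enlargement of heart muscle under load. Wild-type (WT) mice and mice labelled MCT1KO, meaning a knockout of the lactate and pyruvate transporter MCT1 encoded by Slc16a1, received no pump, a pump with saline, or a pump with Ang/PE, a pair of neurohormonal agonists that cause hypertrophy. The groups held 4 WT and 3 MCT1KO hearts with no pump, 6 WT and 4 MCT1KO hearts with saline, and 3 WT and 5 MCT1KO hearts with Ang/PE. The labels give neither age, sex nor strain, nor the time of infusion, nor the tissue in which Slc16a1 was deleted, nor whether a separate control allele or Cre was carried. Nothing in them says more of how the animals were handled, so the p-values below measure the spread between these hearts only.

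Type I interferons act through a receptor pair on the cell surface and the kinases and STAT factors behind it, and the STAT complex binds the interferon-stimulated response element (ISRE) in front of its target genes. The products of these genes block viral translation, tag or degrade proteins and RNA, and feed back on the pathway. Macrophages are among the cells known to keep a low, tonic level of this program in the absence of infection.

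The libraries held 12216704 to 24880683 counted reads, of which 8.87% to 18.4% came from mitochondrially encoded genes. The targeted gene, Slc16a1, averaged 203 ± 36.8 CPM, reads scaled to the size of the library, in WT and 200 ± 29.6 in MCT1KO hearts with no pump, 199 ± 29.9 and 158 ± 26 with saline, and 214 ± 10.6 and 190 ± 21.9 with Ang/PE (mean ± SD, n as above). With saline 3 of 4 MCT1KO hearts lay below the lowest of the 6 WT hearts. The fitted log2 differences of Slc16a1, MCT1KO against WT, were −0.02 with no pump (adjusted p = 0.976), −0.33 with saline (adjusted p = 0.219) and −0.18 with Ang/PE (adjusted p = 0.807) by edgeR, so none was called, and the transcript was present in every heart, at no less than 132 CPM. Reads summed over a whole gene do not show whether part of it is deleted. Each direction given for the libraries labelled MCT1KO therefore rests on the label alone. The summed level of 5 adipocyte markers reached 1450 CPM in MCT1KO saline 4, while no other heart exceeded 78.6 CPM. With saline this sum ran from 0.523 to 40.2 CPM in WT and from 1.75 to 1450 CPM in MCT1KO hearts. No heart with no pump or with Ang/PE exceeded 1.32 CPM. The sum of 4 atrial muscle markers, in which Nppa weighs most, ran from 22 to 7380 CPM with the highest value in MCT1KO saline 4. Its highest values in WT and MCT1KO hearts were 132 and 463 CPM with no pump, 2600 and 7380 with saline, and 317 and 5150 with Ang/PE. Xist, the RNA of the inactive X chromosome, was present, at no less than 548 CPM, in 13 hearts and was near 0 in 12, unevenly over the groups. Among WT hearts it was present in 2 of 4 with no pump, 1 of 6 given saline and 3 of 3 given Ang/PE, and among MCT1KO hearts in 0 of 3, 3 of 4 and 4 of 5. In bulk tissue such as this, fewer cells of a type and less RNA per cell cannot be told apart.

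The ISRE is the sequence that the members are known for, so the 250 bases before the start site of each gene were searched for its core. Of the 9 members, 8 had an entry in RefSeq's promoter table (build GRCm38.p6). The core, GAAA and GAAA with any 2 bases between them, or TTTC and TTTC likewise on the other strand, was present in 4 of the 8, Ifit1, Ifit3, Isg15 and Rsad2, against 2.98% of 32851 windows of the same length. The 4 windows are printed 5′ to 3′ on the strand of the gene, with the core in capitals. They are chr19:34640639-34640888 on the plus strand for Ifit1, chr19:34583279-34583528 on the plus strand for Ifit3, chr4:156200819-156201068 on the minus strand for Isg15 and chr12:26456453-26456702 on the minus strand for Rsad2.
Ifit1: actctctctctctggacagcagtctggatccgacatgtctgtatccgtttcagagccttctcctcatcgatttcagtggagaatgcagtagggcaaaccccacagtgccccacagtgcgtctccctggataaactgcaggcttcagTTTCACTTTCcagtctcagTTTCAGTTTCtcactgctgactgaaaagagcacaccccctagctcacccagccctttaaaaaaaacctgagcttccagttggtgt
Ifit3: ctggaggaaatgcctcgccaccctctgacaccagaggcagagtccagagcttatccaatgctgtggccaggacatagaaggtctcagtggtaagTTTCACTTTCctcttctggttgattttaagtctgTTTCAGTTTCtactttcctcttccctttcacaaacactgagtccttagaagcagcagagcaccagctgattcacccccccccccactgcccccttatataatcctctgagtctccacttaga
Isg15: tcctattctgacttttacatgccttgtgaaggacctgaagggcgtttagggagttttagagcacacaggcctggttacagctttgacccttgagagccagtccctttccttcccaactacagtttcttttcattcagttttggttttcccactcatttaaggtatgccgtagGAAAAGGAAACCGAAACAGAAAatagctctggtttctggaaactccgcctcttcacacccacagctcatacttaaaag
Rsad2: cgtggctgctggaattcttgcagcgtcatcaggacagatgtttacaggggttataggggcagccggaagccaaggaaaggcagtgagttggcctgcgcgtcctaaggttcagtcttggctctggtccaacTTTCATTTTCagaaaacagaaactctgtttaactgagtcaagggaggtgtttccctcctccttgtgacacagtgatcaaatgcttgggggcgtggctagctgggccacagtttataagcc
Ifit1 and Ifit3 hold 2 copies each, all on the reverse strand, between 76 and 104 bases before the start in Ifit1 and between 113 and 156 in Ifit3. Isg15 holds 3 overlapping copies in one run, between 57 and 78 bases before its start, and Rsad2 holds 1 copy, between 111 and 120 bases before its start. The letters of the core were not found in these windows of Ifit2, Oasl2, Irf7 and Ifi44. The palindrome TTCNNNGAA, a core of the element bound by STAT dimers, was in 1 of the 8, Ifit2, and in 7.02% of all windows. The ISRE core was also in 14 of 33 matched genes of a list of 42 other type I interferon-stimulated genes, and in 11 of 22 matched genes of a list of 29 interferon gamma-responsive genes. Such matches describe letters, not binding in these hearts.

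All 9 genes were expressed at a low level in every heart, with 14 to 431 reads each. Per kilobase of exon, which allows genes to be compared, Ifit2 stood highest at 4.36 ± 1.03 CPM per kb (mean ± SD, n = 25), followed by Ifit3 at 4.21 ± 1.64, Rsad2 at 3.78 ± 0.853 and Isg15 at 3.43 ± 0.959. Irf7 followed at 2.67 ± 0.673 CPM per kb, then Ifit1 at 2.02 ± 0.603, Oasl2 at 1.91 ± 0.454 and Usp18 at 1.51 ± 0.350, and Ifi44 was lowest at 0.734 ± 0.212. Neighbours in this order lay within an SD of each other, except Ifi44, whose distance from Usp18 exceeded the SD of either. The exon length used can exceed that of any single transcript. It is 6374 bases for Oasl2 and 6129 for Ifi44, whose longest transcripts hold 3123 and 4064 bases, while for Isg15 both are 756. The order therefore depends on the length used. Ifit3 shares 51.2% of its 50-base stretches with its near-copy Ifit3b and Ifit1 shares 7.06% with Ifit1bl2, so reads of these genes may be split or lost and their levels are uncertain. Isg15 shares 3.96%, and the other 6 share none. The spread between hearts of 1 group, as edgeR's biological coefficient of variation, ran from 18.9% for Usp18 to 36.8% for Ifit3, against a median of 16.2% over all tested genes. It was above the median of genes at a like level for 8 of the 9, the exception being Usp18 at 18.9% against 19.2%. Counting error alone gives a coefficient of 5.83% for Ifit2 to 14.9% for Isg15 at the median count of a heart.

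Ifit1, Ifit2 and Ifit3 encode proteins that bind viral RNA and hold back its translation. Their levels spanned 1.92 to 8.22 CPM for Ifit1, 11.1 to 29.5 CPM for Ifit2 and 3.47 to 12.6 CPM for Ifit3 over the 25 hearts, and each was lowest in MCT1KO Ang/PE 1. Without a pump Ifit3 stood at 4.02, 7.70, 7.04 and 10.2 CPM in WT and at 6.13, 4.92 and 6.88 CPM in MCT1KO hearts. With saline Ifit3 had its lowest, median and highest WT values at 4.24, 5.98 and 12 CPM, and MCT1KO hearts read 11, 7.72, 12.6 and 5.19 CPM. Under Ang/PE Ifit3 was at 7.04, 5.73 and 12.4 CPM in WT and at 3.47, 11.7, 4.38, 4.79 and 9.61 CPM in MCT1KO hearts. Single hearts near 12 CPM occurred in both pump treatments and both genotypes, and each pair of groups overlapped. The MCT1KO Ang/PE hearts fell into a pair of high and a trio of low ones for Ifit3.

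Rsad2 encodes viperin, an enzyme that makes a chain-terminating nucleotide against viruses. Without a pump Rsad2 stood at 14.4, 20.7, 15 and 22.1 CPM in WT and at 16.7, 14.2 and 18.1 CPM in MCT1KO hearts. With saline Rsad2 had its lowest, median and highest WT values at 12.7, 14.8 and 17.5 CPM, and MCT1KO hearts read 13.9, 12.4, 20.9 and 7.96 CPM. Under Ang/PE Rsad2 was at 17.8, 12.3 and 24.5 CPM in WT and at 15, 16.5, 15.1, 20.9 and 20.5 CPM in MCT1KO hearts. The lowest heart of the series, MCT1KO saline 4, lay well below the rest, and the highest was WT Ang/PE 3.

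Oasl2 encodes a relative of the oligoadenylate synthetases with ubiquitin-like domains. Without a pump Oasl2 stood at 8.62, 15.4, 13.9 and 11 CPM in WT and at 10.2, 8.26 and 13.2 CPM in MCT1KO hearts. With saline Oasl2 had its lowest, median and highest WT values at 8.39, 10.4 and 14 CPM, and MCT1KO hearts read 12.8, 11.8, 14.2 and 20.2 CPM. Under Ang/PE Oasl2 was at 13.1, 12.9 and 17.4 CPM in WT and at 7.41, 13.6, 11.9, 11.7 and 11.7 CPM in MCT1KO hearts. MCT1KO saline 4, the lowest heart for Rsad2, was the highest for Oasl2, and MCT1KO Ang/PE 1 was the lowest. Isg15, the ubiquitin-like protein that is joined to other proteins after interferon, had the smallest counts, 14 to 76 reads a heart, and spanned 1.28 to 4.47 CPM with both extremes among the MCT1KO Ang/PE hearts.

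Irf7 is the transcription factor that amplifies type I interferon production. Without a pump Irf7 stood at 7.45, 12.7, 11.1 and 8.90 CPM in WT and at 8.34, 5.91 and 10.5 CPM in MCT1KO hearts. With saline Irf7 had its lowest, median and highest WT values at 6.86, 7.93 and 13.3 CPM, and MCT1KO hearts read 11.5, 8.90, 11.7 and 8.02 CPM. Under Ang/PE Irf7 was at 10.7, 13.7 and 16.4 CPM in WT and at 7.68, 11.9, 9.47, 12.4 and 10.8 CPM in MCT1KO hearts. The WT Ang/PE hearts held the 2 highest values of the series, and their lowest lay inside the range of WT saline hearts but above the highest MCT1KO heart with no pump.

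Usp18 removes ISG15 from proteins and blocks the type I receptor, which makes it the brake among the members. Without a pump Usp18 stood at 3.20, 4.87, 5.04 and 4.34 CPM in WT and at 3.04, 2.99 and 3.71 CPM in MCT1KO hearts. With saline Usp18 had its lowest, median and highest WT values at 2.88, 3.50 and 5.19 CPM, and MCT1KO hearts read 3.54, 4.06, 5.31 and 3.95 CPM. Under Ang/PE Usp18 was at 4.53, 5.17 and 5.07 CPM in WT and at 3.66, 5.79, 3.9, 3.81 and 6.72 CPM in MCT1KO hearts. The MCT1KO hearts with no pump were low and close together, all below the lowest WT Ang/PE heart, and the lowest MCT1KO Ang/PE heart lay just below the highest of them. Of the 135 combinations of a member and 2 groups, these were the only 2 without overlap, Irf7 and Usp18 between MCT1KO no pump and WT Ang/PE. Those groups differ in genotype, in treatment and in Xist, which was present in 0 of 3 and 3 of 3 of their hearts. They form none of the 11 contrasts below. In the 81 combinations whose 2 groups are compared there, 0 were without overlap. How often other genes lack overlap between groups this small was not counted, so neither count can be called high or low.

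Ifi44 encodes a cytoplasmic protein induced by interferon. Without a pump Ifi44 stood at 3.43, 7.31, 3.40 and 7.67 CPM in WT and at 4.42, 2.58 and 3.93 CPM in MCT1KO hearts. With saline Ifi44 had its lowest, median and highest WT values at 3.36, 3.66 and 4.66 CPM, and MCT1KO hearts read 3.06, 5.63, 5.44 and 3.89 CPM. Under Ang/PE Ifi44 was at 4.24, 4.61 and 6.58 CPM in WT and at 3.29, 4.68, 5.65, 5.08 and 4.56 CPM in MCT1KO hearts. The WT hearts with no pump split into 2 high and 2 low ones, with both low ones inside the range of WT saline hearts.

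**Figure D1:**
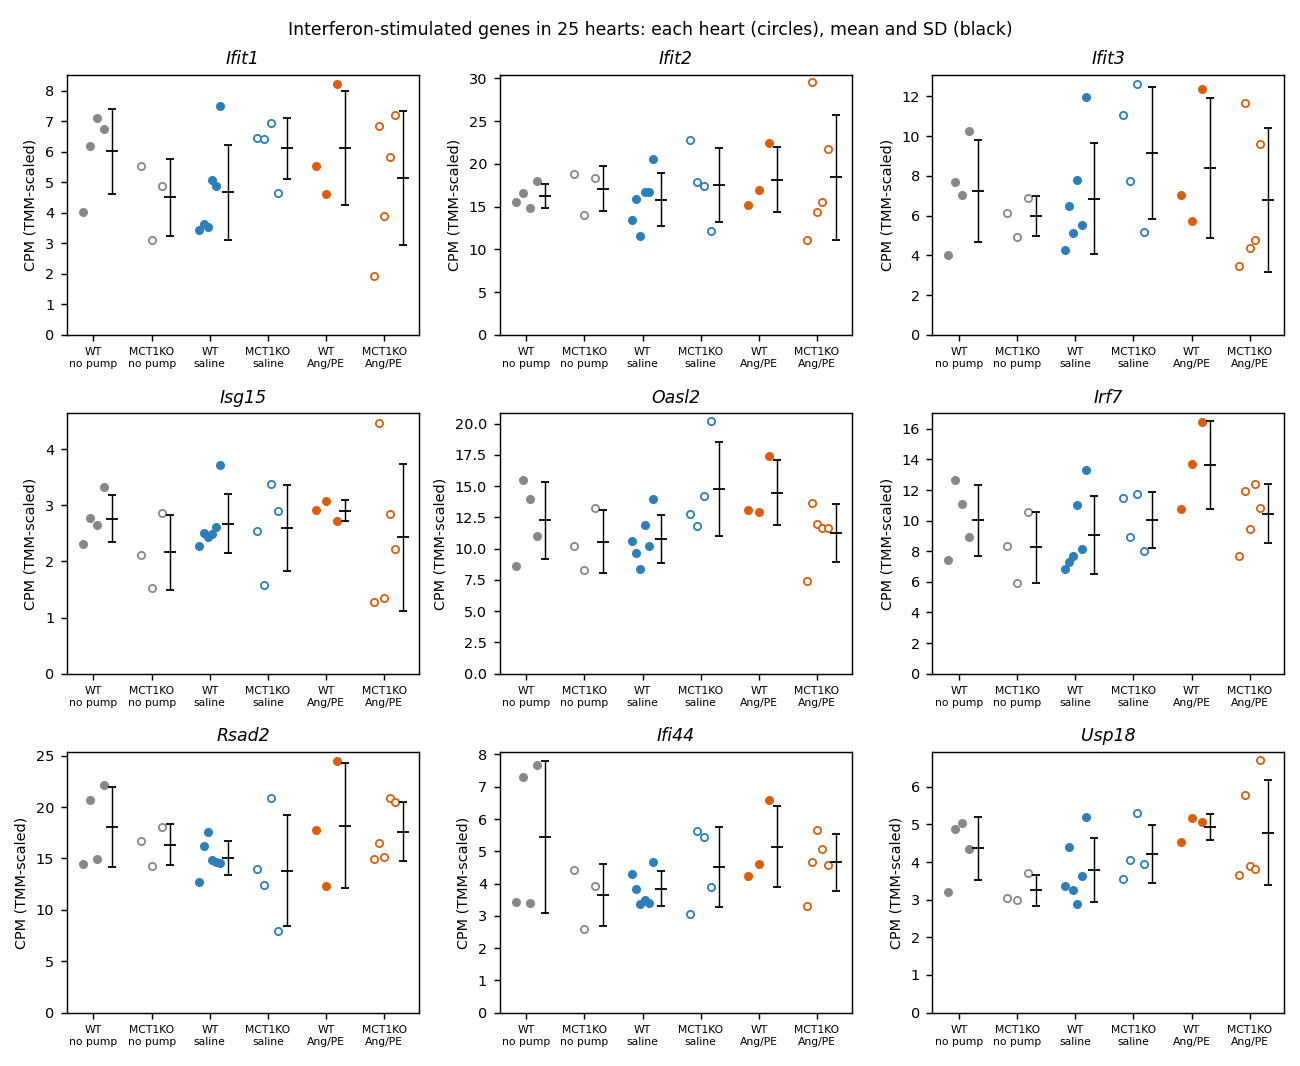
Level of each of the 9 genes in each of the 25 hearts (circles, CPM on TMM-scaled libraries, filled for WT and open for MCT1KO) with the mean and SD of each group in black. Every panel shows overlap of the groups except Irf7 and Usp18, where MCT1KO no pump lies below WT Ang/PE, and Rsad2 in MCT1KO saline 4 (7.96 CPM) and Oasl2 in the same heart (20.2 CPM) stand at opposite ends.

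The 9 genes were compared across 11 contrasts in a single edgeR quasi-likelihood fit, with p-values adjusted over all 17682 genes by the Benjamini-Hochberg method and a call at an adjusted p below 0.05. In none of the 11 was a member called, and DESeq2 also called 0 of 9 in each. Contrasts that use the same group of hearts share its values, so they are given side by side and are not independent. The first 3 contrasts ask how hearts labelled MCT1KO differ from WT. With no pump, 8 of 9 members were lower in MCT1KO hearts with a median log2 fold change of −0.27, 0 of 9 were called beside 0% of all genes, and 0 of 9 had an unadjusted p below 0.05 beside 12.2% of all genes. Leaving out 1 heart moved that median to between −0.47 (without MCT1KO no pump 3) and −0.15 (without MCT1KO no pump 2). Ifi44 lay farthest at −0.57 (SE 0.28, adjusted p = 0.409), and at −0.36 without WT no pump 4. With saline, 7 of 9 members were higher in MCT1KO hearts with a median of 0.15, 0 of 9 were called beside 0% of all genes, and 1 of 9 had an unadjusted p below 0.05 beside 17% of all genes. That 1 was Oasl2, at 0.45 (SE 0.19, unadjusted p = 0.0236, adjusted p = 0.231), and without MCT1KO saline 4 its value was 0.27. The median with saline was 0.30 without WT saline 6. In the contrast with saline all 5 adipocyte markers were higher in MCT1KO hearts with an unadjusted p below 0.05 (median 4.78), though 0 were called. Under Ang/PE, 8 of 9 members were lower in MCT1KO hearts with a median of −0.24, 0 of 9 were called beside 0% of all genes, and 0 of 9 had an unadjusted p below 0.05 beside 6.92% of all genes. Irf7 lay farthest at −0.37 (SE 0.23, adjusted p = 0.754). Without WT Ang/PE 3 the median under Ang/PE was 0.02 and Irf7 was at −0.23.

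Ang/PE against saline compares pumps with and without the hypertrophic agonists. In MCT1KO hearts 5 of 5 adipocyte and 3 of 4 atrial muscle markers were called lower, beside 4.46% of all genes. In WT hearts 0 of them were called, with median log2 fold changes of −3.89 and −8.37. Their part in any value of these contrasts was not tested. In WT hearts all 9 members had a fitted value above 0, with a median log2 fold change of 0.38 against −0.01 over all genes, yet 0 of 9 were called beside 0.017% of all genes. Without WT Ang/PE 3 that median was 0.17. An unadjusted p below 0.05 was reached by 2 of 9 members beside 19.1% of all genes. Irf7 had the smallest p, with a log2 fold change of 0.59 (SE 0.22, unadjusted p = 0.0122, adjusted p = 0.154), from 9.05 ± 2.54 CPM (n = 6) with saline to 13.6 ± 2.85 CPM (n = 3) with Ang/PE. Oasl2 followed at 0.42 (SE 0.20, unadjusted p = 0.0487, adjusted p = 0.26), and at 0.28 without WT Ang/PE 3. All 3 WT Ang/PE hearts had Xist against 1 of 6 WT saline hearts, and with Xist as a covariate the value of Irf7 was 0.25. In MCT1KO hearts the same step gave 5 members above and 4 below 0 with a median of 0.05, and 0 of 9 were called beside 4.46% of all genes. No member had an unadjusted p below 0.05 there, beside 20.4% of all genes, and Ifit3 lay farthest at −0.42 (SE 0.36), with −0.70 without MCT1KO Ang/PE 2 and −0.23 without MCT1KO saline 3. The median of the 9 was −0.17 without MCT1KO Ang/PE 2 and 0.14 without MCT1KO Ang/PE 1. The test of the difference between the genotypes' responses called 0 of 9 members, beside 0% of all genes. Its median was −0.36 (−0.54 without MCT1KO Ang/PE 2), with 8 of 9 below 0, and 1 of 9 had an unadjusted p below 0.05 beside 13.5% of all genes. Oasl2 was that member, at −0.81 (SE 0.28, unadjusted p = 0.00863, adjusted p = 0.295), and without MCT1KO saline 4 it was at −0.63 with an adjusted p of 0.506.

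Saline pump against no pump compares hearts that carried a pump with hearts that did not. Atrial muscle markers differed there too, with a median log2 fold change of 8.35 in WT and 9.71 in MCT1KO hearts. In WT hearts 3 of 4 were called higher beside 6.61% of all genes, and in MCT1KO hearts 0 of 4 beside 0.00566%. The 5 adipocyte markers had medians of 3.9 in WT and 9.7 in MCT1KO hearts, and 0 were called in either. An unadjusted p below 0.05 was reached by 2 of 5 in WT and 5 of 5 in MCT1KO hearts, beside 24.3% and 12.1% of all genes. Their median in the difference between the genotypes' responses was 6.2. The part of either set of markers in any value of these contrasts was not tested. In WT hearts all 9 members had a fitted value below 0, with a median log2 fold change of −0.18 against 0 over all genes, and 0 of 9 were called beside 6.61% of all genes. That median was −0.05 without WT no pump 2 and −0.32 without WT no pump 1. An unadjusted p below 0.05 was reached by 1 of 9 members beside 24.3% of all genes. This was Ifi44 at −0.50 (SE 0.23, unadjusted p = 0.0416, adjusted p = 0.186), from 5.45 ± 2.36 CPM (n = 4) to 3.84 ± 0.532 CPM (n = 6), and without WT no pump 4 it was at −0.29. In MCT1KO hearts 8 of 9 members had a value above 0 with a median of 0.30, and 0 of 9 were called beside 0.00566% of all genes. That median was 0.11 without MCT1KO no pump 2 and 0.50 without MCT1KO no pump 3. An unadjusted p below 0.05 was reached by 1 of 9 beside 12.1% of all genes, Oasl2 at 0.48 (SE 0.22, unadjusted p = 0.0427, adjusted p = 0.392), which was 0.29 without MCT1KO saline 4. Ifit3 had the largest value, 0.61 (SE 0.42). The test of the difference between the genotypes' responses to the saline pump had all 9 members above 0 with a median of 0.57, and called 0 of 9 beside 0.00566% of all genes. An unadjusted p below 0.05 was reached by 2 of 9 beside 17.2% of all genes, Ifi44 at 0.80 (SE 0.37, unadjusted p = 0.0399, adjusted p = 0.27) and Oasl2 at 0.66 (SE 0.29, unadjusted p = 0.0325, adjusted p = 0.251). Without MCT1KO saline 4 the Oasl2 value was 0.47.

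Ang/PE against no pump called 0 of 9 members in WT hearts, beside 0% of all genes, and 0 of 9 in MCT1KO hearts, beside 0.503% of all genes. In WT hearts the median log2 fold change was 0.16, with Irf7 farthest at 0.44 (SE 0.24, adjusted p = 0.59), and 0 of 9 members had an unadjusted p below 0.05 beside 9.02% of all genes. Without WT Ang/PE 3 that median was −0.01 and Irf7 was at 0.29. In MCT1KO hearts all 9 members had a value above 0 with a median of 0.19, which was 0.01 without MCT1KO no pump 2 and 0.35 without MCT1KO Ang/PE 1, and 1 of 9 had an unadjusted p below 0.05 beside 13.1% of all genes. Usp18 was that member, at 0.56 (SE 0.22, unadjusted p = 0.0178, adjusted p = 0.259), from 3.25 ± 0.402 CPM (n = 3) with no pump to 4.78 ± 1.39 CPM (n = 5) with Ang/PE. The share of members with an unadjusted p below 0.05 was above that of all genes in 2 of the 11 contrasts, both at 22.2%: Ang/PE against saline in WT hearts and the genotype-by-saline contrast. The intervals remain wide: for Ifit3, the most variable member, the 95% interval of the genotype difference under Ang/PE ran from −1.11 to 0.54.

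**Figure D2:**
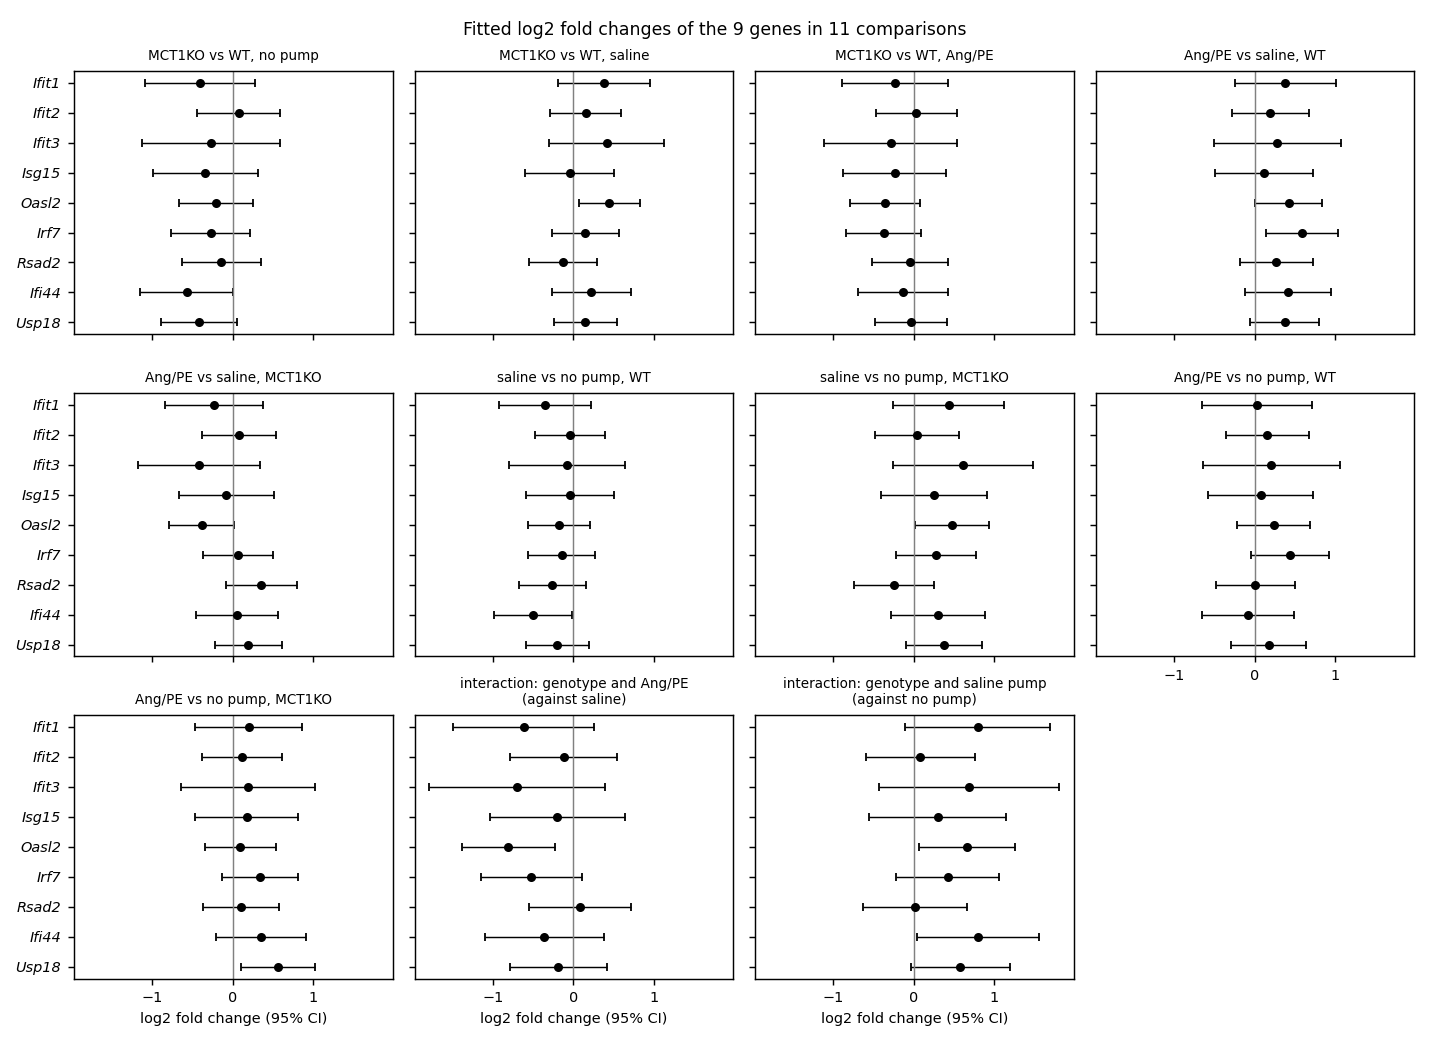
Fitted log2 fold change of each of the 9 genes (points) with its 95% confidence interval (bars) in the 11 contrasts, from edgeR with all 25 hearts. In the genotype-by-Ang/PE panel Oasl2 lies at −0.81, and none of the points passed the adjusted threshold.

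The genes varied together from heart to heart, within groups as much as across them. A score per heart was formed as the mean over the 9 genes of log2 CPM, each scaled to mean 0 and SD 1 over the 25 hearts. WT Ang/PE 3 scored highest at 1.39 SD, followed by MCT1KO Ang/PE 2 at 1.12 and MCT1KO saline 3 at 0.92. MCT1KO Ang/PE 1 scored lowest at −1.49 SD, followed by MCT1KO no pump 2 at −1.34. WT no pump 1 and WT saline 3 came next, both at −0.84. The highest hearts named thus came from both genotypes, while the lowest and second lowest were both labelled MCT1KO. MCT1KO Ang/PE held both the second highest and the lowest score. In WT Ang/PE 3 and in WT saline 6, 7 of 9 members were among their 5 highest hearts, and in MCT1KO saline 3 this held for 6 of 9. In MCT1KO Ang/PE 1, the smallest library at 12216704 reads, and in MCT1KO no pump 2, 7 of 9 members were among their 5 lowest hearts. Whether library size plays a part in the low values of the first was not tested, and the second had 18885925 reads.

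**Figure D3:**
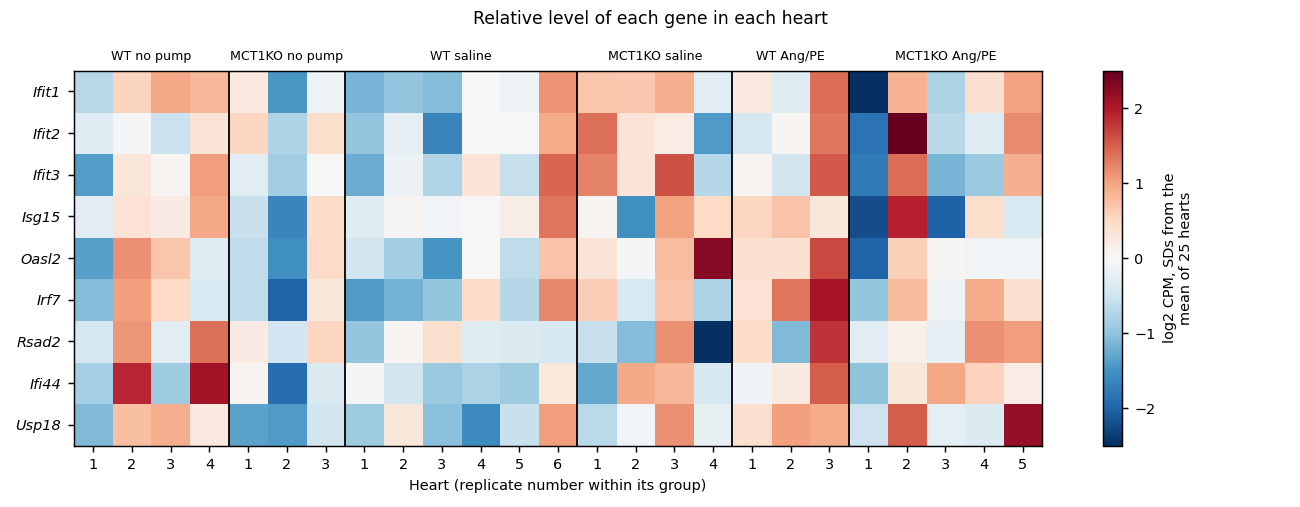
Level of each gene (rows) in each heart (columns, by group and replicate number) as the number of SDs of log2 CPM, without a prior count, from its mean over 25 hearts, red above and blue below. Columns of one colour, such as WT Ang/PE 3 (red) and MCT1KO Ang/PE 1 (blue), occur within groups, and MCT1KO saline 4 has Oasl2 red and Rsad2 blue.

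Over the 36 pairs of members, Pearson's r across the 25 hearts ran from −0.04 to 0.84 with a median of 0.52, and the median was again 0.52 after subtracting each group's mean. The points share libraries and their depth. Ifit1 and Ifit3 were the closest pair at 0.84 (Spearman's rho 0.86), which held within groups at 0.83. The 8 pairs of Rsad2 had the lowest median r of any member, 0.36, followed by those of Ifi44 at 0.48, and the other 7 members had medians of 0.50 to 0.66. Within groups the medians of Rsad2 and Ifi44 were both 0.42, and Rsad2 reached 0.62 with Ifit3, so within groups Ifi44 was as low as Rsad2. The lowest pair was Oasl2 with Rsad2 at −0.04, and this value rested on 1 heart. MCT1KO saline 4 had a ratio of Oasl2 to Rsad2 CPM of 2.53, whereas the other 24 hearts lay between 0.478 and 1.05, and without it r for this pair was 0.36. That heart also carried the highest adipocyte and atrial marker sums of the series, 1450 and 7380 CPM, and their part in the ratio was not tested. With MCT1KO saline 4 left out, the lowest r of any pair was 0.23.

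**Figure D4:**
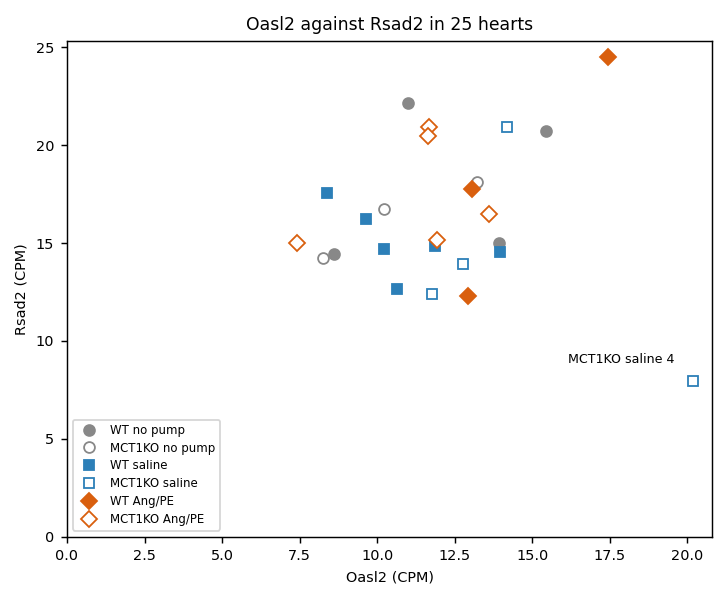
Rsad2 against Oasl2, both in CPM, in 25 hearts (symbols by group). MCT1KO saline 4 lies alone at 20.2 CPM of Oasl2 and 7.96 CPM of Rsad2, and the other hearts form a loose cloud that rises to WT Ang/PE 3.

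The 10 genes whose log2 CPM was most like the score, among 14516 genes outside the members, had r between 0.73 and 0.83 over the 25 hearts. Ifit3b came first at 0.83, the near-copy of Ifit3 whose shared sequence is given above. Phf11b (0.79) and Oas1a (0.73), an oligoadenylate synthetase, were the other 2 that stood on the interferon pathway lists, which hold 0.682% of these 14516 genes. Adgre1, a macrophage surface marker, Ptprc, the leukocyte tyrosine phosphatase, and Sash3, a lymphocyte adaptor, each had r = 0.75. Gm20707 (0.77), Gm4951 (0.74), the chemokine Ccl8 (0.74) and the actin-capping Capg (0.73) completed the 10. Ranked by Spearman's rho, 6 of these 10 were again among the first 10, and by r within groups 5 were. By r within groups only 1 of the first 10, Ifit3b, stood on the pathway lists, and Phf11b ranked 11 and Oas1a 86.

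The wider pathway was read from lists of its other genes. Transcripts of the interferon genes on the list were at or near the limit of detection. Of the Ifna genes the list holds only Ifna1, Ifna2, Ifna4 and Ifna5. Whether reads of such genes were lost to genes of like sequence was not tested. The 11 listed interferon genes had 12 reads in all over 25 hearts, 6 of them had none, none passed the filter, and the largest count in a heart was 3 reads of Ifng. A count of 0 in a heart allows up to 3 reads, which is 0.121 CPM in the deepest and 0.246 CPM in the shallowest library. Of 105 genes on the lists of receptors, signalling, sensors, inhibitors, other type I interferon-stimulated genes and interferon gamma-responsive genes, 104 were tested. With edgeR none was called in 9 of the 11 contrasts, among them all 3 genotype contrasts and both interactions. The most with an unadjusted p below 0.05 in those 9 were the 23 higher and 3 lower genes of Ang/PE against saline in WT hearts, 25% of the 104 beside 19.1% of all genes. DESeq2 called 8 of the 104 there, all higher, beside 3.64% of all genes. The fewest was the 1 lower gene of Ang/PE against no pump in WT hearts, 0.962% beside 9.02% of all genes, where DESeq2 called 0. In the remaining 7 DESeq2 called at most 3 of 104 genes, all higher. These 3 came in the genotype-by-saline contrast, beside 1.91% of all genes. The largest share of all genes in the 7 was 2.18%, for Ang/PE against no pump in MCT1KO hearts, where 0 of 104 were called.

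The edgeR calls among pathway genes came from 2 contrasts. From no pump to saline in WT hearts 6 of 104 were called lower and none higher, and these 5.77% lay near the 6.61% of all genes called. An unadjusted p below 0.05 was reached by 18 lower and 5 higher genes, 22.1% of the 104 beside 24.3% of all genes. DESeq2 called 9 lower and 1 higher there, beside 11.1% of all genes. Tlr7, the endosomal receptor for single-stranded RNA, fell from 10.6 ± 3.84 CPM (n = 4) with no pump to 3.69 ± 0.28 CPM (n = 6) with saline, which is −1.52 on the log2 scale (SE 0.26, adjusted p = 0.00797). The highest WT saline heart (3.97 CPM) lay below the lowest WT heart with no pump (5.14 CPM). Ifi207, a member of the interferon-inducible DNA-sensor family, fell from 39.8 ± 23.2 to 15 ± 4.21 CPM (−1.41, SE 0.34, adjusted p = 0.0204). Ifngr1, the ligand-binding chain of the interferon gamma receptor, fell from 60.7 ± 10.3 to 41.4 ± 3.87 CPM (−0.55, SE 0.11, adjusted p = 0.0106). B2m, the light chain of class I antigen presentation, fell from 173 ± 44.3 to 112 ± 18.5 CPM (−0.62, adjusted p = 0.0315). Slfn2 (−0.61, adjusted p = 0.0437) and Trim30a (−0.45, adjusted p = 0.0449) fell too, and are named after their values were seen. Tlr7 kept its call in all 34 other fits tried. Ifngr1 lost it in 1, without WT no pump 3 (adjusted p = 0.0599), and Ifi207 lost it in 4, among them those without WT no pump 2 (0.0501) and without WT no pump 3 (0.13). B2m lost its call in 9, Slfn2 in 14 and Trim30a in 15, with adjusted p of at most 0.145, 0.169 and 0.157. Without WT no pump 3 the whole contrast called 60 genes in place of 1168.

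Macrophage markers moved in this contrast as well. Of 12 monocyte and macrophage markers 11 had a fitted value below 0, with a list median of −0.64. An unadjusted p below 0.05 was reached by 8 of the 12, all lower, beside 24.3% of all genes. By edgeR 4 were called lower, Cd68 (−1.07), C1qb (−0.76), C1qa (−0.72) and Mrc1 (−0.70), beside 6.61% of all genes called. The list's summed level was 303 to 589 CPM in WT hearts with no pump and 244 to 358 CPM with saline. The 2 ranges overlapped and no marker of the list was at 0. Other contrasts that use the WT hearts with no pump moved likewise, with 0 markers called. All 12 markers were lower in MCT1KO than in WT hearts with no pump, 7 with an unadjusted p below 0.05 beside 12.2% of all genes. All 12 were above 0 in the genotype-by-saline contrast, 8 with an unadjusted p below 0.05 beside 17.2%. Of 34 other fits, Cd68 lost its call in 4, C1qb in 5, Mrc1 in 7 and C1qa in 11, each of them without WT no pump 2 among others, and Cd68 was at −0.64 without WT no pump 4. Over all 25 hearts a score of these markers, formed like that of the members, followed the member score with r = 0.75 (rho = 0.73), with 0.82 within groups, and with 0.71 without the 2 hearts farthest from the median member score. The list of 42 other type I interferon-stimulated genes followed it with r = 0.83 and that of 15 sensors and adaptors with 0.67, while the 6 receptors were at 0.02. Among markers of other cell types r was 0.55 for fibroblasts (rho 0.56) and 0.43 for neutrophils (2 of 6 markers tested). It was 0.33 for plasmacytoid dendritic cells (5 of 6 tested) and 0.30 for lymphocytes (6 of 10 tested, at most 37 reads in a heart). The plasmacytoid list includes Bst2, also on the list of other type I genes, and summed to 395 to 810 CPM. Its r therefore does not stand for that cell type alone. The value of r was 0.07 for endothelial, −0.03 for adipocyte, −0.04 for atrial and −0.33 for cardiomyocyte markers, with a rho of −0.65 for the last. Macrophage markers thus had the highest r of these lists but were not alone, and a difference between the lists was not tested. These values describe hearts that share libraries and depth, and the part of macrophage number in the level of the 9 genes was not tested.

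**Figure D5:**
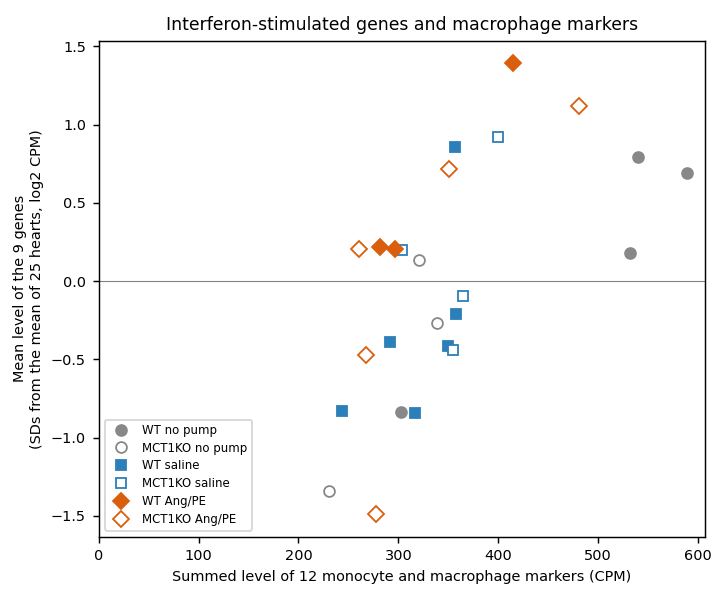
Member score (mean of the 9 genes, in SDs of log2 CPM from the mean of 25 hearts) against the summed CPM of 12 monocyte and macrophage markers in each heart, by group. The 3 hearts with the highest sums (532 to 589 CPM) are WT with no pump and have positive scores, and the lowest heart by marker sum, MCT1KO no pump 2 at 231 CPM, scored −1.34.

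Interferon gamma-responsive genes gave the other edgeR calls among pathway genes, in hearts labelled MCT1KO. From saline to Ang/PE 26 of these 29 genes had a fitted value below 0 and 2 were called lower, beside 4.46% of all genes called. An unadjusted p below 0.05 was reached by 14, all 14 lower. These are 48.3% of the list beside 20.4% of all genes, with a list median of −0.50 while the members' median was 0.05 and that of all genes −0.01. DESeq2 called 4 of the 104 pathway genes there, all lower, beside 6.92% of all genes. Psmb9, a subunit of the immunoproteasome, went from 7.90 ± 0.668 CPM (n = 4) to 4.91 ± 0.935 CPM (n = 5), with a fitted log2 difference of −0.69 (SE 0.19, adjusted p = 0.0364). H2-K1, a class I antigen-presenting molecule, went from 163 ± 20.7 to 113 ± 13 CPM, with a fitted log2 difference of −0.53 (SE 0.15, adjusted p = 0.0437). In both genes no Ang/PE heart reached the lowest saline heart. Psmb9 lost its call in 6 of 34 other fits and H2-K1 in 14, including those without MCT1KO saline 2 (0.0627 and 0.106), without MCT1KO saline 4 (0.156 and 0.178) and with only the 2 groups in the fit (0.159 for both). A difference between the lists was not tested.

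Hearts with and without Xist were also compared with the groups kept as terms in the fit, a contrast added after the values were seen. With edgeR it called 0 of 9 members beside 0.175% of all genes, and 1 of 9 had an unadjusted p below 0.05 beside 8.84% of all genes. This was Irf7, at 11.7 CPM on average in hearts with Xist and 8.41 CPM in those without, with a log2 difference of 0.41 (SE 0.14, unadjusted p = 0.00892, adjusted p = 0.398).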

How the data were processed

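Total RNA of the hearts was depleted of ribosomal RNA and made into directional libraries, per the labels' protocols. The authors deposited 1 table of raw read counts per gene for 25 libraries, with whole numbers that were not normalized, and each column was matched to its heart by the library identifier in the title. The submitters' processing notes name STAR 2.7.9a, cutadapt 1.16, featureCounts 1.6.3, DESeq2 1.42.1 and the build GRCm39 (mm39), with no role or order. Whether counting used strand is not given in the sources used here, so reads of overlapping and antisense genes may be shared.

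Genes were filtered with filterByExpr, libraries scaled by TMM, and 1 model of 6 groups fitted with edgeR 4.0.16 (robust glmQLFit, glmQLFTest) in R 4.3.3 with limma 3.58.1, leaving 19 residual degrees of freedom. Tests were two-sided and the script was tested on simulated data. Log2 CPM used a prior count of 2, except in the map of each gene in each heart, which used none. Exon lengths came from GENCODE M21, and promoters from RefSeq's table. The 11 contrasts, the 9 genes and the lists were chosen with earlier results of these data known. Named genes are the 9 members, Slc16a1, the called genes of the pathway lists (at most 4 of smallest p in each direction) and the 10 genes most like the member score with a mean log2 CPM above 0. Alternatives were RLE scaling, DESeq2 1.42.0, no low-count filter, only the groups compared, a replicate block, removal of mitochondrially encoded genes, thinning to the smallest library, a non-robust fit, an Xist covariate and each heart left out. Over 52 pairs of same-numbered hearts of different groups, deviations from the group means correlated with a mean r of 0.00941 and 9 pairs exceeded 0.1, so the numbers were not taken to pair hearts. No pair of hearts within a group agreed within sampling noise (43 pairs, lowest chi-square per degree of freedom 3.33).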

Additional observations from a re-analysis of the deposited data

Results flagged for a closer look

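Of 36 combinations of a member and a group of 4 to 6 hearts, 2 had a heart far from the others of its group, where chance alone gives about 1.8. Isg15 in WT saline 6 was at a log2 CPM of 1.94 (3.72 CPM), above the other 5 hearts of its group at 1.25 to 1.45. Oasl2 in MCT1KO Ang/PE 1 was at a log2 CPM of 2.91 (7.41 CPM), below the other 4 hearts of its group at 3.56 to 3.78.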

How the results depend on the processing

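No member was called in any of the 11 contrasts under the 9 other settings or with any 1 of the 25 hearts left out, and the members' values that the text names kept their direction in all of these fits, while 3 of their medians changed sign without single hearts, as given above. A replicate block, which treats hearts of the same number as pairs although the numbers only name them, also called 0 of 9 members in each contrast. With it the members' median for Ang/PE against saline in MCT1KO hearts was −0.01 in place of 0.05, and it gave Oasl2 −0.95 in the genotype-by-Ang/PE contrast. The Slc16a1 difference with no pump, −0.02, changed sign with single hearts left out and ran from −0.14 to 0.09 over these fits. With Xist as a covariate the members' median in WT hearts, Ang/PE against saline, was 0.18 in place of 0.38, for the genotype-by-saline contrast 0.29 in place of 0.57, and for the genotype-by-Ang/PE contrast −0.18 in place of −0.36. It also brought the genotype medians with no pump, saline and Ang/PE to −0.13, 0.07 and −0.16, those of saline against no pump in WT and MCT1KO hearts to −0.13 and 0.17, and those of Ang/PE against no pump to 0.05 and 0.01. The replicate block brought the genotype median with saline to 0.31 and the WT median for saline against no pump to −0.29. The number of all genes called, which sets the background, was far less stable. Ang/PE against saline in MCT1KO hearts called 788 genes, but 1 with only the groups compared, 39 without MCT1KO saline 4, 1541 without MCT1KO saline 3 and 1224 with DESeq2. Saline against no pump in WT hearts called 1168, but 60 without WT no pump 3, 2234 without WT no pump 1 and 2287 with only the groups compared. In WT hearts, Ang/PE against saline called 3, but 945 with only the groups compared, 644 with DESeq2, 316 without MCT1KO saline 3 and 0 with the Xist covariate. In MCT1KO hearts, saline against no pump called 1, but 626 without MCT1KO saline 3 and 209 with DESeq2, and the genotype-by-saline contrast called 1, but 663 without WT no pump 1. Ang/PE against no pump in MCT1KO hearts called 89, but 1 without MCT1KO no pump 2, 226 without MCT1KO saline 4 and 385 with DESeq2. DESeq2 called 24, 146 and 5 genes in the genotype contrasts with no pump, saline and Ang/PE, where edgeR called none with all hearts. With edgeR itself the count was 250 genes in that with saline without MCT1KO saline 3 and 82 with the Xist covariate. The causes were not tested. Depth limits Isg15 most, with as few as 14 reads in a heart.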
